A study of Homo sapiens with 9 samples.

Results

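Integrins and laminins are made of chains that are encoded by separate genes, and the 38 human genes of these chains were followed here among the 58037 genes of the deposited table. The members were taken by their symbols alone, as every gene named for an integrin alpha chain (ITGA, 18 genes), an integrin beta chain (ITGB, 8 genes) or a laminin alpha, beta or gamma chain (LAMA, 5 genes, LAMB, 4 genes, and LAMC, 3 genes). RNA had been sequenced from 3 lines of human triple-negative breast cancer (MDA-MB-231, then MDA-MB-436, then MDA-MB-453), each as an untreated control, after GSK343, and after shEZH2. GSK343 is a drug-like compound that inhibits EZH2, the enzyme of Polycomb repressive complex 2 that methylates histone H3, and shEZH2 is a short hairpin RNA against the EZH2 transcript. The sources used here give no dose, time or hairpin sequence, and the controls are called untreated in the labels but shControl in the column headers.

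Laminins are secreted trimers of 1 alpha, 1 beta and 1 gamma chain and are the main adhesive proteins of the basement membrane, the sheet on which breast epithelium rests. Integrins are membrane dimers of 1 alpha and 1 beta chain that bind laminins and other matrix proteins outside the cell and link them to the cytoskeleton inside. The alpha chain largely sets which ligand is bound, the beta 1 chain pairs with many alpha chains, and the beta 4 chain pairs with the alpha 6 chain in hemidesmosomes, which anchor epithelial cells to laminin-332. Chains mostly leave the cell or reach its surface together with their partners, so the RNA level of a single chain does not give the amount of a complex.

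Each line gave 1 library per condition, 9 in all, so the labelled lines stand as the 3 replicates, and p-values measure only how far a difference varies between these libraries. The labels name no separate cultures. The deposited values are RPKM, reads scaled to exon length and library size, and the depth they correspond to was 14757043 to 18283426 reads per library. EZH2 ran against the labels: its RPKM was 27.4, 38.9 and 42.3 in the controls, 5.77, 7.53 and 7.99 under the GSK343 label, then 16.4, 37.4 and 16.2 under the shEZH2 label, so the groups are named by label throughout. Values of 3 libraries are always given in the order MDA-MB-231, MDA-MB-436, MDA-MB-453. That last label also stands apart, since the values of its treated libraries mostly lay between those of the other lines. Among the 12965 genes that reached 1 RPKM in 3 or more libraries this was so for 47.1% in the controls, 73.8% under the GSK343 label, then 83% under the shEZH2 label, and results are therefore also given without these libraries. Whether they come from an independent line, as their labels say, was not tested. The epithelial gene CDH1, E-cadherin, was low in all 9 libraries (0 to 0.443 RPKM). The vimentin gene VIM, a mesenchymal marker, was abundant in every library. These 2 genes do not stand for their lists. Of 15 luminal breast markers, CDH1 among them, 10 passed the filter, with a summed level of 140 to 427 RPKM. Of 10 mesenchymal-like markers 9 passed, with a sum of 399 to 932 RPKM.

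Of the 38 members 23 passed the filter on low values and were tested, 15 of them with at least 1 RPKM in all 9 libraries and 8 with fewer. ITGA7 and ITGAM passed through treated libraries alone, since no control reached 1 RPKM. The other 15 members were not tested. For 13 of these every library lay below 1 RPKM: ITGA2B, ITGA8, ITGA9, ITGA10, ITGA11, ITGAD, ITGAL, ITGB6, ITGB7, LAMA2, LAMA4, LAMB4 and LAMC3. ITGAX reached that level in 2 libraries and ITGB3 in 1. Because the members that passed are those with some expression, counts over them describe the expressed chains and not the whole family.

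**Figure D1:**
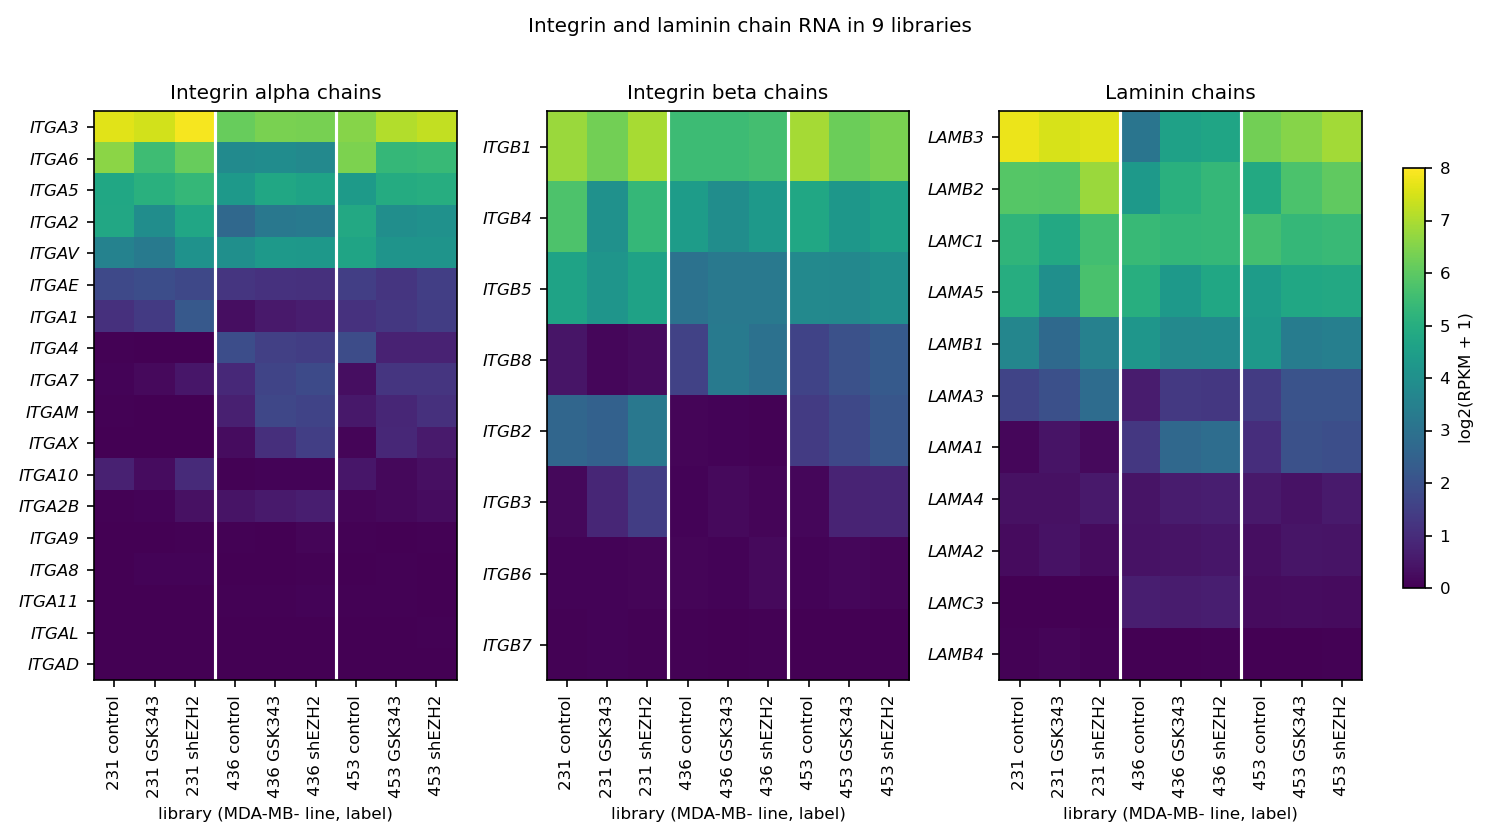
Level of 37 members in each of the 9 libraries as log2(RPKM + 1), with integrin alpha, integrin beta and laminin chains in separate panels, genes ordered by their mean level and libraries grouped by cell line (white lines). ITGA3, ITGB1 and LAMB3 head their panels, and the lowest rows of each panel are near 0 in every library.

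Laminin beta chains carried the most laminin RNA in 8 of 9 libraries, and in the MDA-MB-436 control the gamma chains summed higher (47.4 against 44.1 RPKM). LAMB3, the beta chain found in laminin-332, stood at 218, 7.56 and 78.2 RPKM in the controls, at 183, 22.7 and 92.0 under the GSK343 label, then at 193, 25.1 and 117 under the shEZH2 label. Its partner, the alpha chain LAMA3, was lower in every library, between 0.529 and 6.12 RPKM. LAMB3 RNA therefore exceeded LAMA3 RNA per length by 14.3 times in the MDA-MB-436 control and by 103 times in the MDA-MB-231 control, with 47.7 times in the control labelled MDA-MB-453.

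LAMA5, the widespread alpha chain of epithelial basement membranes, ranged from 14.8 to 51.1 RPKM and LAMC1, the common gamma chain, from 27.5 to 47.8 RPKM. These 2 with LAMB1 or LAMB2 make laminin-511 and laminin-521, and only those 2 of 14 trimers known from biochemistry had every chain at 1 RPKM or more in all 9 libraries. Another 7 of the 14 had a chain below 1 RPKM in every library: LAMA2 and LAMA4, alpha chains of muscle, nerve and vessel laminins, stayed between 0.166 and 0.582 RPKM, and LAMC3 between 0 and 0.596. The lowest chain of laminin-511 was LAMB1 in every library, at 5.64 to 19.0 RPKM. No complex was measured here: these are levels of the least abundant RNA.

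ITGA3, the alpha chain of a laminin receptor, had the highest mean over the 9 libraries, with 200, 70.0 and 93.5 RPKM in the controls, 174, 82.5 and 135 under the GSK343 label, then 237, 80.4 and 152 under the shEZH2 label. Its partner ITGB1 stood at 109, 43.8 and 121 RPKM in the controls, 77.3, 43.3 and 72.2 under GSK343 and 123, 47.6 and 82.9 under shEZH2. Both were lowest in MDA-MB-436 under every label. Of 24 known integrin dimers 7 had both chains at 1 RPKM or more in all libraries, the beta 1 dimers with ITGA2, ITGA3, ITGA5, ITGA6 and ITGAV, the hemidesmosome dimer of ITGA6 with ITGB4, and the vitronectin receptor of ITGAV with ITGB5. In 11 dimers a chain was below 1 RPKM in every library. ITGAE, an alpha chain whose only known partner is ITGB7, ranged from 1.14 to 2.69 RPKM, while ITGB7 was at most 0.0454 RPKM. ITGB7 shares 42.1% of its exon length with a gene on the opposite strand, and ITGB3 51.6% with one on its own strand, so their low values are uncertain.

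The beta 2 integrins of white blood cells were split between the lines. ITGB2, the shared beta chain, was at 5.28, 4.66 and 8.11 RPKM in the MDA-MB-231 control, GSK343 and shEZH2 libraries, at 0.0877, 0.0533 and 0.0248 in those of MDA-MB-436 and at 1.62, 2.29 and 3.39 in those labelled MDA-MB-453. ITGAM, the alpha chain of the complement receptor Mac-1, showed the reverse, with 0.0316, 0 and 0.00965 RPKM in MDA-MB-231, 0.642, 2.27 and 2.07 in MDA-MB-436 and 0.427, 0.805 and 1.16 in the libraries labelled MDA-MB-453. The ITGB2 values of MDA-MB-231 lay above all others and the ITGAM values of that line below all others. ITGAX, another alpha partner, was listed at 0 in all 3 MDA-MB-231 libraries, with 0.202, 1.12 and 1.82 RPKM in MDA-MB-436 and 0.0702, 0.848 and 0.485 in the libraries labelled MDA-MB-453. MDA-MB-231 thus held the beta chain with little RNA of any alpha partner, and MDA-MB-436 held alpha chains with little of the beta chain. ITGAL, the lymphocyte partner, was at most 0.0279 RPKM, and ITGAD was listed at 0 in all but 1 library.

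Of 12 leukocyte markers looked at beside them, 2 passed the filter, the actin-bundling gene LCP1 and the lipopolysaccharide receptor CD14. The defining genes were at or near 0: MS4A1 and CD3E were listed at 0 in 8 of 9 libraries, PTPRC (CD45) was at most 0.203 RPKM and SPI1 at most 0.0655. The summed level of the 12 markers was 6.93 to 10.7 RPKM in the controls, 9.49 to 29.7 under the GSK343 label, then 10.7 to 23.3 under the shEZH2 label, most of it LCP1 and CD14. Summed levels of 7 platelet and endothelial markers (0.884 to 4.44 RPKM) and of 8 fibroblast markers (3.16 to 8.24 RPKM) were also low. The part of such cells in these results was not tested. In RNA from many cells, fewer cells of a type and less RNA per cell cannot be told apart.

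**Figure D2:**
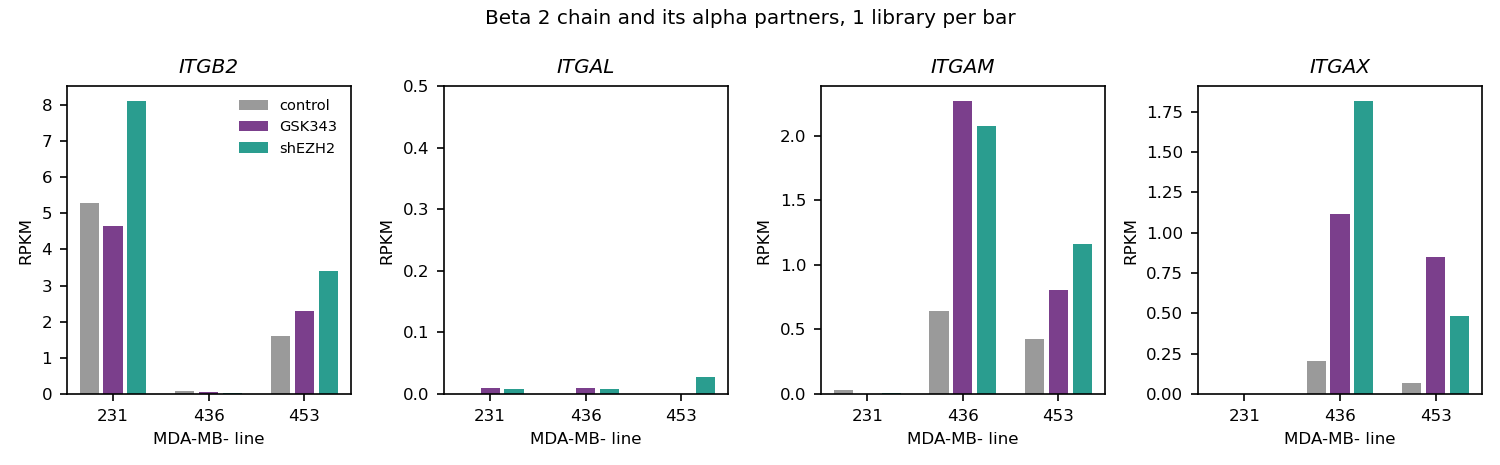
RPKM (linear axes of different height) of ITGB2 and of the alpha chains ITGAL, ITGAM and ITGAX in each library, grouped by MDA-MB- line, with grey, purple and green bars for the libraries labelled control, GSK343 and shEZH2. ITGB2 is high where ITGAM and ITGAX are low (MDA-MB-231) and low where they are high (MDA-MB-436), and the libraries labelled MDA-MB-453 hold all 3.

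The first question of the design is how these genes respond when EZH2 is targeted. All 3 treatment comparisons use the same 3 control libraries, so they are not independent. Values were compared as log2(RPKM + 1) within lines by limma, with Benjamini-Hochberg adjustment over all 12965 genes and a threshold of 0.05. Differences below are on that scale, with 95% intervals after ±, and understate the change of genes near or under 1 RPKM. Under the GSK343 label 1 member rose and 2 fell of 23 tested, where 6.25% of all genes rose and 1.6% fell. Under the shEZH2 label 5 rose and 0 fell, against 8.35% and 2.28% of all genes. At an unadjusted p under 0.05 there were 11 and 13 members, beside 3347 and 3705 of the 12965 genes. For the mean of both, 5 members rose and 2 fell, against 12.2% and 4.3% of all genes. The median difference of the 23 members was -0.07 under GSK343, 0.29 under shEZH2 and 0.03 for the mean of both, beside 0.06, 0.05 and 0.05 over all genes tested. ITGA7 and ITGAM were tested only because treated libraries reached 1 RPKM, and without them 4 of 21 members rose under shEZH2 and 4 rose and 2 fell for the mean of both. Among all genes that reached 1 RPKM in a control and in a library of the treatment compared, 7.53% rose under shEZH2, and 10.9% rose and 4.42% fell for the mean of both.

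When 1 line was left out, the counts of calls fell most without the libraries labelled MDA-MB-453. Without those 3 libraries 0 members passed in any of the treatment comparisons, among 21 tested, with 5, 5 and 7 at an unadjusted p under 0.05 by limma for GSK343, shEZH2 and the mean of both. ITGA7 and ITGAM were not tested there. For the mean of both the differences were then 0.83 for LAMA1, 0.72 for LAMA3, 0.65 for LAMB2, 0.41 for ITGA5, -0.47 for LAMB1 and -0.37 for ITGA6. Of all genes 0.369%, 0.169% and 1.45% then passed, and how many reached the unadjusted level was not counted. Without the control labelled MDA-MB-453 alone, 0 members passed in the same 3 comparisons. The calls over all genes then fell to 295, 326 and 680, from 1018, 1377 and 2141, so the loss was not particular to the members. Without MDA-MB-231 instead, 3, 3 and 8 of 23 members passed (504, 496 and 1164 of all genes). Without MDA-MB-436 these counts were 4, 5 and 7 of 20 (997, 1298 and 1763 of all genes). Calls were lost there too, as for ITGB4 under GSK343 without MDA-MB-231 (-0.51) and LAMA1 under GSK343 without MDA-MB-436 (0.62).

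LAMB2 rose and LAMB1 fell. These are the alternative beta chains of the laminins that hold LAMC1, and LAMB2 is known from mature basement membranes of kidney, nerve and vessel. LAMB2 stood at 58.9, 19.0 and 28.2 RPKM in the controls, 57.1, 33.0 and 52.7 under the GSK343 label, then 111, 38.7 and 64.4 under the shEZH2 label. It was higher than the control in all 3 lines under shEZH2 and in 2 of 3 under GSK343, with overlap between the groups. The difference was 1.02 ± 0.40 under shEZH2 (limma adjusted p = 0.00807), 0.53 ± 0.40 under GSK343 (adjusted p = 0.0908) and 0.78 ± 0.34 for the mean of both (adjusted p = 0.00822). Without the control labelled MDA-MB-453 it was 0.90 under shEZH2 (adjusted p = 0.0587) and 0.65 for the mean of both (adjusted p = 0.0735), and without all libraries of that label 0.95 and 0.65.

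LAMB1 stood at 11.6, 17.5 and 19.0 RPKM in the controls, 5.64, 12.7 and 9.16 under the GSK343 label, then 10.4, 13.2 and 9.88 under the shEZH2 label. All 6 treated libraries were lower than the control of their own line, although the groups overlap across lines. The difference was -0.78 ± 0.38 under GSK343 (limma adjusted p = 0.0228), -0.47 ± 0.38 under shEZH2 (adjusted p = 0.108) and -0.62 ± 0.33 for the mean of both (adjusted p = 0.0188). Under GSK343 the call was lost without the MDA-MB-231 library labelled GSK343 (-0.63), the control labelled MDA-MB-453 (-0.63) or the MDA-MB-453 library labelled GSK343 (-0.78), with adjusted p between 0.081 and 0.108. For the mean of both it was -0.47 without the control labelled MDA-MB-453 (adjusted p = 0.123).

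The ratio of LAMB2 to LAMB1 RPKM, chosen after the values were seen, was 5.07, 1.09 and 1.48 in the controls. It was 10.1, 2.61 and 5.75 under the GSK343 label, then 10.7, 2.93 and 6.52 under the shEZH2 label. Within a line the ratio was thus 2.0, 2.40 and 3.88 times the control value under GSK343 and 2.11, 2.69 and 4.40 times under shEZH2. The smallest of these shifts were in MDA-MB-231 and the largest in the libraries labelled MDA-MB-453. LAMB2 exceeded LAMB1 in all 9 libraries.

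**Figure D3:**
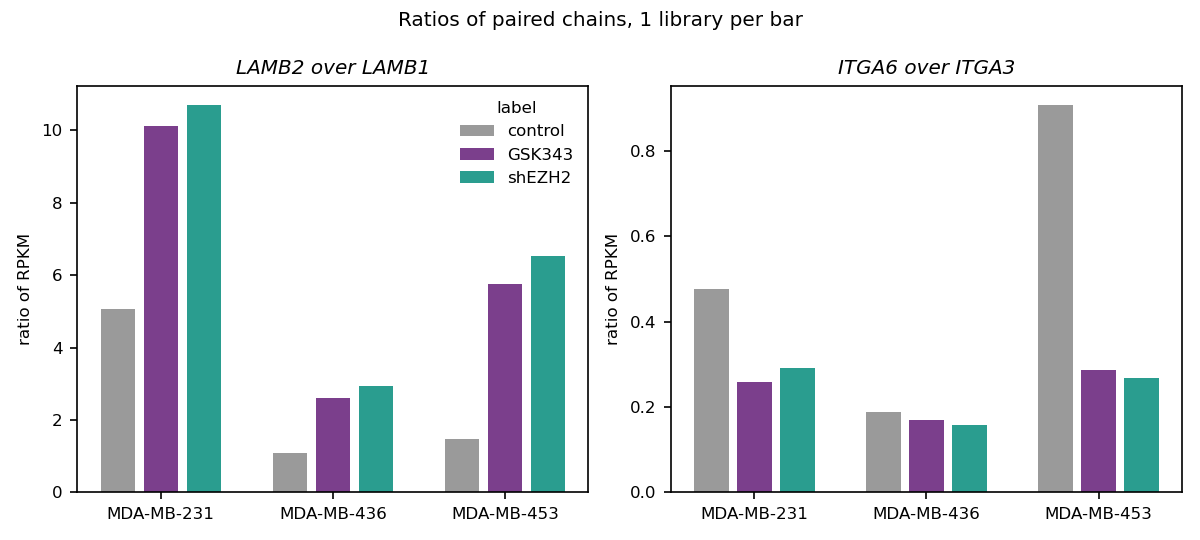
Ratio of RPKM (linear axes) of LAMB2 over LAMB1 (left) and of ITGA6 over ITGA3 (right) in each library, grouped by cell line, with bars for the libraries labelled control, GSK343 and shEZH2. The LAMB2 over LAMB1 ratio is higher in both treated libraries than in the control of every line, and the ITGA6 over ITGA3 ratio is lower, from 0.907 to 0.268 in the libraries labelled MDA-MB-453 and only from 0.187 to 0.157 in MDA-MB-436. Both ratios were chosen, among others, after the values were seen.

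The promoter sequences of these chains are shown because they face each other in the treatment response, together with those of the LAMB3 gene, whose RNA differs strongly between lines, and of LAMA3, the member with AP-1 matches. RefSeq windows (GRCh38.p14) of the 250 bases before the annotated start matched 26 of the 38 members, with the most upstream start taken where a gene has several. Members with no entry include ITGA3, ITGA7, ITGA9, ITGAD, ITGAL, ITGAX, ITGB2, ITGB3, ITGB4, LAMA1 and LAMC3. Sequences run 5′ to 3′ on the gene's strand, capitals mark motif matches on any strand, and they end where GENCODE 29 places an exon of the gene. LAMB2 lies at chr3:49133119-49133300 (minus strand), LAMB1 at chr7:108003256-108003411 (minus strand) and LAMB3 at chr1:209652467-209652675 (minus strand). The LAMA3 matches with 10 bases on each side lie at chr18:23872885-23872911 and chr18:23872941-23872967 (plus strand), at an internal start of the gene. Both lie past -181, the last base before an exon that GENCODE 29 places in the gene. The ending rule was not applied to these 2 stretches.
LAMB2: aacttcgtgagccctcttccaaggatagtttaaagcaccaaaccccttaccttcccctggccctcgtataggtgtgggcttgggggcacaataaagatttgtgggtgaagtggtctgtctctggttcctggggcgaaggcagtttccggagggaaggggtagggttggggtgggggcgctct
LAMB1: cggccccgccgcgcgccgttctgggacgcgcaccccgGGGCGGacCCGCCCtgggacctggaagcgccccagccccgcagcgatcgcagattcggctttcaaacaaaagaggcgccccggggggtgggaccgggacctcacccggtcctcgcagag
LAMB3: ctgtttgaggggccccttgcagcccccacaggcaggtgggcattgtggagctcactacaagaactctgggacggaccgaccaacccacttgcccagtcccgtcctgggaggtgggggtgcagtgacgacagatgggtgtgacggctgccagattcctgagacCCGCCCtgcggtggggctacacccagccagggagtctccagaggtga
LAMA3 first AP-1 match: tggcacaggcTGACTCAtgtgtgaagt
LAMA3 second AP-1 match: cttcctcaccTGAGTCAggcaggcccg

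Motifs were searched in the 250 bases on both strands. The AP-1 motif TGANTCA was found in 1 of the 26 members, LAMA3, at -125 and -69 from the start, while 6.57% of 27305 promoters of that length hold it. The SP1 motif GGGCGG was found in 13 of 26 members, against 42.2% of all promoters. LAMB1 held 4 such matches, 2 of them in the stretch shown, LAMB3 held 1 at -88, and LAMB2 held 1 at -68, just past the stretch shown. The NF-kB consensus was found in 0 of 26 members and in 0.553% of all promoters. The members' windows had a median GC content of 61.2%, against 57.6% for all. A match describes letters in this window only.

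LAMA3 and LAMA1 rose among the alpha chains of laminin. LAMA3, the alpha chain of laminin-332, was at 2.12, 0.529 and 1.64 RPKM in the controls, 2.85, 1.5 and 3.12 under the GSK343 label, then 6.12, 1.47 and 3.1 under the shEZH2 label. Every treated library was above its own control. The difference was 0.84 ± 0.40 under shEZH2 (limma adjusted p = 0.0160), 0.55 ± 0.40 under GSK343 (adjusted p = 0.0813) and 0.70 ± 0.34 for the mean of both (adjusted p = 0.0132). Under shEZH2 the call was lost without the MDA-MB-231 library labelled shEZH2 (0.60, adjusted p = 0.0885) or the control labelled MDA-MB-453 (0.87, adjusted p = 0.0760). For the mean of both it was lost without the control of MDA-MB-231 (0.67, adjusted p = 0.0517) or the control labelled MDA-MB-453 (0.72, adjusted p = 0.0760).

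LAMA1, the alpha chain of embryonic basement membranes, was at 0.0977, 1.46 and 1.05 RPKM in the controls, 0.337, 5.56 and 2.99 under the GSK343 label, then 0.145, 6.32 and 2.80 under the shEZH2 label. The levels were higher than the control in all 3 lines but stayed low in MDA-MB-231. LAMA1 passed the threshold under both labels, by 0.89 ± 0.50 under GSK343 (limma adjusted p = 0.0373) and 0.84 ± 0.50 under shEZH2 (adjusted p = 0.0382), and by 0.86 ± 0.43 for the mean of both (adjusted p = 0.0146). Within lines the mean of both was 0.17, 1.5 and 0.92. It did not pass for the mean of both without the control of MDA-MB-436 (0.55, adjusted p = 0.0693) or the control labelled MDA-MB-453 (0.83, adjusted p = 0.112). Under the separate labels it was lost without any of 5 single libraries for GSK343 (0.57 to 0.99) and of 5 for shEZH2 (0.53 to 0.84). The gene shares 11.1% of its exon length with genes on the opposite strand, and the strand setting of the counting is not given.

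The laminin chains LAMB3, LAMC1 and LAMA5 did not pass. LAMB3 differed by 0.58 ± 0.53 for the mean of both (limma adjusted p = 0.120), with -0.21, 1.54 and 0.40 in the 3 lines. LAMC1 differed by -0.12 ± 0.31 and LAMA5 by -0.08 ± 0.51, the latter with -0.45 under GSK343 and 0.29 under shEZH2.

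Among the integrins ITGA5 rose. ITGA5, the alpha chain of the classical fibronectin receptor, was at 26.3, 18.8 and 19.4 RPKM in the controls, 32.7, 26.0 and 29.2 under the GSK343 label, then 38.9, 23.8 and 30.6 under the shEZH2 label. All 6 treated libraries were above their own control. The difference was 0.50 ± 0.30 under shEZH2 (limma adjusted p = 0.0393), 0.44 ± 0.30 under GSK343 (adjusted p = 0.0710) and 0.47 ± 0.26 for the mean of both (adjusted p = 0.0224). Its call is the least stable of the rises: rescaling by median ratios ended it (0.40 under shEZH2 and 0.37 for the mean of both, adjusted p = 0.0851 and 0.0584). Under shEZH2 it was also lost without any of 7 single libraries (0.44 to 0.59), and for the mean of both without any of 6 (0.41 to 0.49).

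ITGA7, the alpha chain of the muscle laminin receptor, was at 0.0562, 0.888 and 0.224 RPKM in the controls, 0.149, 2.13 and 1.35 under the GSK343 label, then 0.395, 2.46 and 1.35 under the shEZH2 label. These values rest on few reads in MDA-MB-231, where about 6 reads were counted in the control and about 46 in the shEZH2-labelled library. Each treated library was above its control. The difference was 0.74 ± 0.37 under shEZH2 (limma adjusted p = 0.0194), 0.60 ± 0.37 under GSK343 (adjusted p = 0.0517) and 0.67 ± 0.32 for the mean of both (adjusted p = 0.0116). The gene passed the filter on low values only through treated libraries, so this call comes with the filter and is given as a description. For the mean of both the call was lost without the control labelled MDA-MB-453 (0.53, adjusted p = 0.0986), and under shEZH2 without any of 5 single libraries (0.60 to 0.79).

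ITGA6 and ITGB4, the partners in hemidesmosomes, were lower. ITGB4 was at 53.0, 20.3 and 26.4 RPKM in the controls, 15.6, 14.2 and 18.0 under the GSK343 label, then 39.6, 19.2 and 22.4 under the shEZH2 label. All 3 libraries labelled GSK343 lay below all 3 controls. That held for 1 of 23 members and for 3.03% of all genes tested, so it is not particular to the members. It fell by 0.91 ± 0.47 under GSK343 (limma adjusted p = 0.0273), with -1.71, -0.49 and -0.53 in the 3 lines, while under shEZH2 the difference was -0.24 ± 0.47 (adjusted p = 0.5). For the mean of both it was -0.57 ± 0.41 (adjusted p = 0.0547). The GSK343 call was lost without the MDA-MB-231 control (-0.67) or its GSK343-labelled library (-0.55), or without the control labelled MDA-MB-453 (-1.01), with adjusted p between 0.0832 and 0.0937.

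ITGA6 was at 95.6, 13.1 and 84.8 RPKM in the controls, 45.0, 13.9 and 38.8 under the GSK343 label, then 69.3, 12.6 and 40.7 under the shEZH2 label. It was lower in MDA-MB-231 and in the libraries labelled MDA-MB-453 but not in MDA-MB-436, with -0.76, 0.01 and -1.08 for the mean of both. That mean fell by 0.61 ± 0.42 (limma adjusted p = 0.0487) but not under either label alone (-0.70 ± 0.48 and -0.52 ± 0.48, adjusted p = 0.0717 and 0.147). It did not pass without any of 7 single libraries (-0.67 to -0.37), nor with pseudocounts of 0.1 or 0.5 (adjusted p = 0.0565 and 0.0505). ITGA3 and ITGB1, the other chains that bind laminin-332, did not pass (0.28 ± 0.32 and -0.25 ± 0.33 for the mean of both, adjusted p = 0.198 and 0.282).

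**Figure D4:**
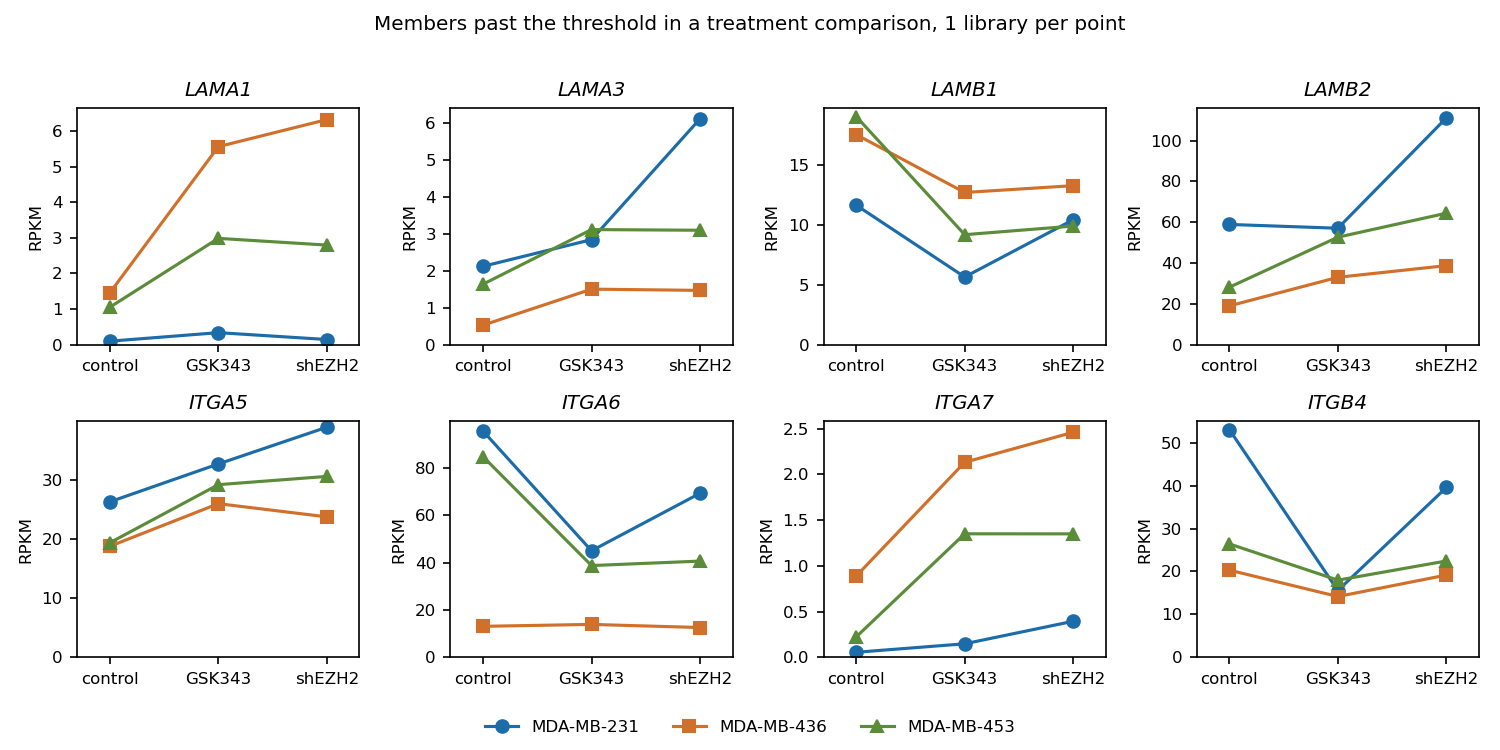
RPKM (linear axes) of the 8 members past the threshold in a treatment comparison, with 1 point per library and lines joining the libraries of a cell line across the labels control, GSK343 and shEZH2. LAMB2, LAMA3, LAMA1, ITGA5 and ITGA7 slope up from the control, apart from LAMB2 under GSK343 in MDA-MB-231, and LAMB1 and ITGB4 slope down, while ITGA6 is flat in MDA-MB-436.

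The alpha v integrins bind vitronectin and activate latent TGF-beta, and none of the chains tested passed in a treatment comparison. ITGAV, the shared alpha chain, was at 10.7, 14.7 and 24.4 RPKM in the controls, 8.92, 18.9 and 16.6 under the GSK343 label, then 15.9, 18.3 and 16.6 under the shEZH2 label. ITGB5 was at 23.9, 7.07 and 12.6 RPKM in the controls, 17.1, 8.32 and 12.4 under GSK343 and 23.5, 8.50 and 14.9 under shEZH2. Neither showed a common direction over the lines. ITGB8, whose dimer is a known activator of TGF-beta, was at 0.370, 1.98 and 2.05 RPKM in the controls, 0.112, 8.75 and 2.99 under GSK343 and 0.188, 6.92 and 3.77 under shEZH2. It was higher in treated MDA-MB-436 and lower in treated MDA-MB-231 (0.61 ± 0.55 for the mean of both, limma adjusted p = 0.117). ITGB3, the beta chain known from platelets, was not tested, with 0.136, 0.0542 and 0.0989 RPKM in the controls, 0.802, 0.151 and 0.727 under GSK343 and 1.74, 0.0767 and 0.794 under shEZH2. These ITGB3 values rest on 4 to 10 reads in the controls and 6 to 140 in treated libraries, and ITGB6 stayed between 0.0469 and 0.15 RPKM.

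Of the remaining members tested, ITGA1 and ITGA2 are collagen receptors and ITGA4 is a receptor of VCAM1 and fibronectin. ITGA1 was higher in all 3 lines under both labels (0.42 ± 0.34 for the mean of both, limma adjusted p = 0.0890). ITGA4 was at 0.0227, 2.72 and 2.64 RPKM in the controls, 0.00858, 1.86 and 0.693 under GSK343 and 0, 1.71 and 0.700 under shEZH2. It was lower in every treated library than in its control (-0.52 ± 0.38, adjusted p = 0.0625). In MDA-MB-231 that rests on 3, 1 and 0 reads in the control, GSK343 and shEZH2 libraries. The differences from the control there were -0.02 and -0.03. ITGA2 was at 26.7, 5.52 and 27.5 RPKM in the controls, 14.0, 8.23 and 14.6 under GSK343 and 25.7, 8.61 and 15.7 under shEZH2, and moved up in MDA-MB-436 and down elsewhere. ITGAM differed by 0.46 ± 0.37 (adjusted p = 0.0823), ITGB2 by 0.22 ± 0.34 and ITGAE by -0.06 ± 0.27.

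The libraries labelled GSK343 and shEZH2 were also compared directly. None of the 23 members passed (0 of 23 by limma, with 3 at an unadjusted p under 0.05), and 0% of all genes were called higher and 0% lower, with 295 at an unadjusted p under 0.05. The 3 members were ITGB4 (-0.67 ± 0.47), LAMA5 (-0.74 ± 0.59) and LAMB2 (-0.49 ± 0.40), each lower under GSK343 in all 3 lines. The ITGB4 and LAMA5 differences were largest in MDA-MB-231 (-1.29 and -1.72, against -0.41 and -0.43 in MDA-MB-436). The calls that differ between the labels, such as ITGB4, are therefore not shown to differ by this test.

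The second question is how the lines differ. Between MDA-MB-231 and MDA-MB-436, over the 3 labels, 21 of the 23 members passed, 14 higher in MDA-MB-231 and 7 higher in MDA-MB-436, against 28.6% and 34.8% of all genes. LAMC1 (-0.13 ± 0.35) and LAMA5 (0.20 ± 0.59) did not. The members' median was 0.83, beside -0.09 over all genes. With 1 library per line and label, this p measures whether a line difference held over the 3 labels. For 7 members only 1 of these lines reached 1 RPKM, so that the filter itself favours a difference and their calls are given as a description: ITGB8, LAMA1, ITGA4, ITGAM and ITGA7 stayed below it in MDA-MB-231, and ITGB2 and ITGA1 in MDA-MB-436. Of the other 16 members 12 were higher in MDA-MB-231 and 2 in MDA-MB-436, against 26.8% and 31.6% of the 11040 genes that reached 1 RPKM in both lines.

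LAMB3 and LAMA3, chains of laminin-332, and the chains of its receptors were higher in MDA-MB-231. LAMB3 differed by 3.51 ± 0.61 (limma adjusted p = 6.32e-07), and by 4.68 in the controls, 2.96 under GSK343 and 2.89 under shEZH2. LAMA3 (1.06 ± 0.40), LAMB2 (1.28 ± 0.40), ITGA6 (2.25 ± 0.48), ITGA3 (1.37 ± 0.37), ITGB1 (1.16 ± 0.39) and ITGB4 (0.83 ± 0.47) were also higher, as were ITGA2 (1.42 ± 0.55), ITGB5 (1.32 ± 0.33) and ITGA1 (1.08 ± 0.40). ITGB2 was higher by 2.70 ± 0.39 (adjusted p = 1.34e-07). The order of sizes depends on the pseudocount. With 0.1 in place of 1 the differences of ITGB2 (5.28), ITGA4 (-4.29), ITGB8 (-4.05), LAMA1 (-3.79) and ITGAM (-3.79) were larger than that of LAMB3 (3.59). ITGAE and ITGA5 were higher by 0.64 ± 0.31 and 0.49 ± 0.30. In the opposite direction MDA-MB-436 was higher for ITGB8 (-2.33 ± 0.63), LAMA1 (-2.04 ± 0.50), ITGA4 (-1.60 ± 0.44), ITGAM (-1.33 ± 0.43), ITGA7 (-1.20 ± 0.37), LAMB1 (-0.64 ± 0.38) and ITGAV (-0.54 ± 0.45). ITGAV lost its call under median-ratio rescaling (-0.43) and without any of 4 single libraries (-0.56 to -0.35). LAMB1 lost it without the MDA-MB-231 library labelled GSK343 (-0.48) or its MDA-MB-436 counterpart (-0.49), and ITGA5 without the MDA-MB-436 library labelled shEZH2 (0.40).

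The summed RPKM of all 38 members was 930, 327 and 628 in the controls, 702, 373 and 584 under the GSK343 label, then 1021, 393 and 668 under the shEZH2 label. MDA-MB-436 had the lowest sum under every label and MDA-MB-231 the highest. The laminin alpha chains did not follow that order, with 33.6, 33.9 and 23.8 RPKM in the controls, nor did the gamma chains, with 51.6, 47.4 and 58.8.

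**Figure D5:**
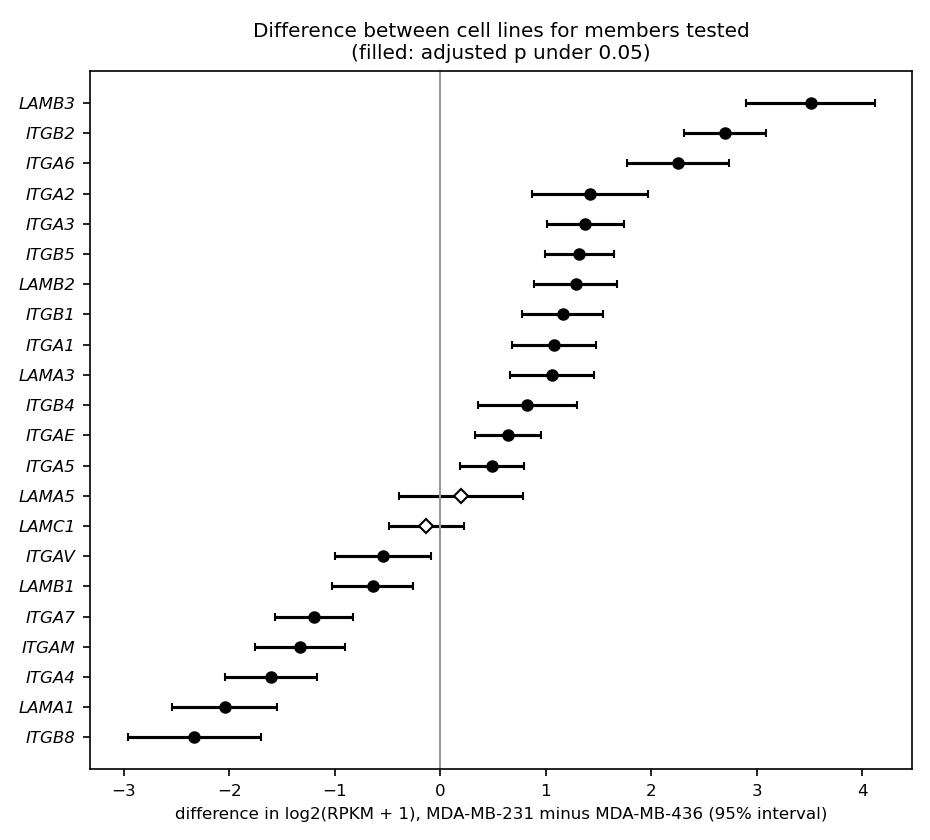
Difference in log2(RPKM + 1) between MDA-MB-231 and MDA-MB-436 for 22 of the members tested, as points with 95% intervals, where filled circles passed the threshold and open diamonds did not. LAMB3 at 3.51 and ITGB8 at -2.33 mark the ends, and only the intervals of LAMA5 and LAMC1 include 0.

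The libraries labelled MDA-MB-453 were compared with each of the other lines. Against MDA-MB-231 they had 6 members higher and 6 lower, where 20.1% and 11.2% of all genes were. Of those 6 higher members 5 (ITGB8, LAMA1, ITGA4, ITGAM and ITGA7) had no MDA-MB-231 library at 1 RPKM, which leaves 1 higher and 6 lower of 18. Among the 11774 genes that reached 1 RPKM in a library of both, 15.2% were higher and 12% lower. Against MDA-MB-436 the libraries labelled MDA-MB-453 had 11 members higher and 2 lower, where 18.6% and 16.1% of all genes were. Without ITGB2 and ITGA1, which had no MDA-MB-436 library at 1 RPKM, 9 were higher and 2 lower of 21. Among the 12001 genes that reached 1 RPKM in a library of both, 14.9% were higher and 16.6% lower. The member values lay between those of the other lines for 15 of 23 members in the controls, 18 under GSK343 and 22 under shEZH2. These are 65.2%, 78.3% and 95.7%, beside 47.1%, 73.8% and 83% of all genes. LAMB3 was lower than in MDA-MB-231 (-1.06 ± 0.61) and higher than in MDA-MB-436 (2.45 ± 0.61). The difference from MDA-MB-231 lost its call without the control of MDA-MB-231 (-0.66, limma adjusted p = 0.0825) or the control labelled MDA-MB-453 (-1.14, adjusted p = 0.0617). Without the control labelled MDA-MB-453 the count against MDA-MB-231 fell from 12 to 7, and that of all genes from 4060 to 2806. The control labelled MDA-MB-453 lay above both other lines for 7 members, LAMB1, ITGB8, LAMC1, ITGAV, ITGB1, ITGA2 and ITGA1, and below both for LAMA5.

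Whether the response differed between the lines was tested by a limma F-test that sets the 2 treated libraries of a line against its control. Only the difference between those 2 libraries, which had different interventions, gives the spread. The control of a line is a single library and adds none. None of the 23 members passed (0 by limma's F-test, with 7 at an unadjusted p under 0.05), and 0.0231% of all genes did. At that unadjusted level were 3710 of the 12965 genes. The smallest adjusted p values belonged to LAMB3 (0.0800), ITGB8 (0.0857), LAMA1 (0.0940) and ITGA4 (0.0940). For LAMB3, ITGB8 and LAMA1 the rise in MDA-MB-436 was 1.54, 1.56 and 1.5, against -0.21, -0.25 and 0.17 in MDA-MB-231. For ITGA4 the largest drop was in the libraries labelled MDA-MB-453 (-1.10). Without the MDA-MB-231 library labelled GSK343, 12 members passed, and without the shEZH2-labelled library of that line 13, where 4021 and 4137 of all genes passed.

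Other genes of the pathway were taken from lists by function, and the counts below are for the mean of both treatments, by limma with adjustment over all genes, where 12.2% of all genes rose and 4.3% fell. Of 21 tested activators and adaptors, which couple integrin tails to actin, 2 rose and 2 fell: FERMT3 (kindlin-3, 0.59 ± 0.12 SE, adjusted p = 0.00973) and NEDD9 (0.58 ± 0.15 SE) rose, while FERMT1 (kindlin-1, -0.63 ± 0.16 SE) and the actin-binding adaptor PARVA (-0.37 ± 0.12 SE) fell. Of 18 adhesion kinases and GTPase genes 2 rose, the tyrosine kinases SRC (0.59 ± 0.13 SE, adjusted p = 0.0119) and FYN (0.50 ± 0.13 SE). Of 10 hemidesmosome and tetraspanin partners 3 rose, led by the tetraspanin CD9 (0.91 ± 0.12 SE, adjusted p = 0.000949), with CD63 and the hemidesmosome collagen COL17A1. The median differences of these lists were -0.08, -0.03 and 0.13, beside 0.05 over all genes.

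Of 15 other basement membrane genes 3 rose, among them NTN4, a netrin that binds laminin (0.85 ± 0.14 SE, adjusted p = 0.00375). NTN1 (0.66 ± 0.18 SE) and the collagen IV chain COL4A6 (0.55 ± 0.16 SE) were the others. Of 19 other integrin ligands 5 rose and 2 fell. MFGE8, a ligand of alpha v integrins, rose by 1.23 ± 0.15 SE (adjusted p = 0.000591), ICAM1, a ligand of beta 2 integrins, by 1.31 ± 0.18 SE (adjusted p = 0.00114) and NOV, a matricellular protein, by 1.44 ± 0.22 SE (adjusted p = 0.00198). FN1 (fibronectin, 0.69 ± 0.13 SE) and ICAM5 (0.68 ± 0.19 SE) also rose, and THBS1 (thrombospondin-1, -0.80 ± 0.19 SE) and L1CAM (-0.68 ± 0.20 SE) fell. Of 7 latent TGF-beta genes, 4 integrin inhibitors and 6 other laminin receptors, 1 rose in each list and 0 fell: LTBP4 (0.63 ± 0.16 SE), DOK1 (0.55 ± 0.15 SE) and SDC4 (0.52 ± 0.16 SE). The medians of the 5 lists, in the order named, were 0.17, 0.13, 0.24, 0.19 and 0.02.

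Of these genes CD9 and MFGE8 passed also without the libraries labelled MDA-MB-453 (0.91 and 1.03, limma adjusted p = 0.0296 and 0.0279) and without any single library. NTN4, ICAM1, NOV and FN1 passed without any single library but not without that label (0.81, 1.17, 1.35 and 0.65, adjusted p = 0.0792, 0.0542, 0.0727 and 0.0697). THBS1 lost its call without the control of MDA-MB-436 (-0.46). Without the control labelled MDA-MB-453 the call was lost for FERMT3 (0.53), NEDD9 (0.48), FERMT1 (-0.51), PARVA (-0.29), SRC (0.43) and FYN (0.51). The same control ended the calls of CD63 (0.39), COL17A1 (0.44), NTN1 (0.53), COL4A6 (0.61), ICAM5 (0.51), L1CAM (-0.75), LTBP4 (0.45), DOK1 (0.37) and SDC4 (0.42).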

How the data were processed

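The authors deposited 1 table of RPKM for 58037 genes and 9 libraries. STAR, HTSeq and GRCh38 stand in the submitters' processing notes. Versions, annotation and strand setting: not given in the sources used here. Multiplied by GENCODE 29 exon lengths, low RPKM of genes with the same identifier version there (92.5%) were whole multiples of 1 read (100% within 0.05), which gave the depths. Read numbers of other versions, 9 members among them, are approximate. Genes at 1 RPKM or more in at least 3 libraries (12965) were fitted as log2(RPKM + 1) with limma 3.58.1 (R 4.3.3, statmod 1.5.0), with treatment and line as terms, a mean-variance trend, 4 residual degrees of freedom and two-sided p-values. The F-test used 3. With 3 pairs, the smallest p of an exact sign-flip test is 0.25. The script was tested on simulated data.

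Lines pair the libraries: across genes, deviations from the treatment means correlated at 0.358 to 0.953 within a line and -0.957 to 0.09 between lines. Members, lists and tests were chosen with earlier results of these data known. The genes named are the members past the threshold in a treatment comparison, up to 6 per direction between MDA-MB-231 and MDA-MB-436, the 5 most abundant, laminin-332 with its receptors, the alpha v group, and up to 3 per other list (smallest p). PARVA, FN1, ICAM5, THBS1 and L1CAM were named after their values were seen. Some genes are not reported here. Coordinates are GRCh38. Alternatives were other pseudocounts, filters, scalings, moderation, no line or treatment term, only the libraries compared, and leaving out lines or libraries. All columns were used.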

Additional observations from a re-analysis of the deposited data

How the results depend on the processing

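Counts of members past the threshold depended on the filter, the line term and single libraries, while 0 of the 1160 alternative values of the 61 calls reversed their direction. Many of these values could not reverse: settings that change only the filter, the moderation or the model terms leave the difference itself unchanged. Of 46 calls between lines 27 held under every setting. Of 15 treatment calls 0 did, and each was lost under at least 3 settings. With no filter on low values 0, 0 and 0 members passed for GSK343, shEZH2 and the mean of both, and without the line term (no replicate block) also 0, 0 and 0, against 3, 5 and 7. Calls over all genes fell likewise, from 1018, 1377 and 2141 to 14, 15 and 186 with no filter, and to 2, 2 and 3 without the line term. With a mean RPKM of at least 5 the shEZH2 count was 2 (937 of all genes), and with only the 6 libraries of the comparison the GSK343 count was 6 (1262 of all genes).

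Leaving out a library or a line gave 0 to 6 members for GSK343, 0 to 8 for shEZH2 and 0 to 8 for the mean of both. The lowest values came without MDA-MB-453 or its control and the highest without the control of MDA-MB-231, for GSK343 and shEZH2. Calls over all genes ranged from 46 to 1267, 21 to 1639 and 180 to 2083 over the same settings, lowest without MDA-MB-453. Leaving libraries out gave 18 to 21 members between MDA-MB-231 and MDA-MB-436, 7 to 13 for MDA-MB-453 against MDA-MB-231, 9 to 16 against MDA-MB-436 and 0 to 13 for the F-test. Left alone in its arm, a library is assumed to vary like the others.

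Between lines, a mean RPKM of at least 5 (14 members tested) gave 12 members for MDA-MB-231 against MDA-MB-436, 6 for MDA-MB-453 against MDA-MB-231 and 8 against MDA-MB-436. Calls over all genes were then 4722, 2416 and 2693. No filter gave 4 and 8 for the comparisons of MDA-MB-453 (1775 and 2409 of all genes), and no treatment term gave 7 against MDA-MB-231 (2584 of all genes). Beyond the settings that test fewer or more genes, the cause was not tested. Median-ratio scaling moved the median of all genes from 0.05 to -0.05 for MDA-MB-453 against MDA-MB-231. Members far below 1 RPKM rest on few reads, which limits their precision.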
